A study of Mus musculus with 6 samples.

Results

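The genes described here keep mitochondrial DNA and make RNA from it: Polg, Polg2, Ssbp1, Polrmt, Tfam, Tfb1m and Tfb2m, whose products work inside mitochondria, and the nuclear regulators Nrf1, Gabpa and Gabpb1. They were found by name, and all 10 of them are among the 28879 genes of the deposited table. RNA-Seq was carried out on mouse blastocysts that had been vitrified and warmed, in 3 libraries, and on fresh blastocysts, in 3 libraries. Zygotes came from superovulated C57BL/6JNarl mice aged 6 to 8 weeks (the series description names B6CBF1 mice instead), and both groups reached the blastocyst stage in human tubal fluid medium. Vitrification used the Cryotech kit, and only the vitrified–warmed group passed through it. Each group was 1 pool of embryos, divided into aliquots that gave 1 library each, so p-values measure the spread between aliquots of a single pool and cover no difference between pools or embryos.

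Mitochondrial DNA is copied by DNA polymerase gamma, with POLG as the catalytic and POLG2 as the accessory subunit, while SSBP1 coats the single strands. POLRMT is the mitochondrial RNA polymerase. It starts transcription with TFAM, which also packs the DNA into nucleoids, and with TFB2M. TFB1M methylates the small ribosomal RNA of mitochondria. NRF1 and GABP, a complex of the DNA-binding subunit GABPA with GABPB1 or GABPB2, activate nuclear genes for the respiratory chain and for this machinery. In the mouse, mitochondrial DNA is hardly copied between fertilization and the blastocyst stage, when copying resumes in the trophectoderm, and embryos without Nrf1 or Gabpa die around implantation.

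The libraries held 9093411 to 11275436 exon fragments in vitrified–warmed and 10788884 to 11843562 in fresh blastocysts. Exon fragments made up 54.4% to 56.6% and 63.2% to 63.6% of the totals used for FPKM in these groups. Fresh replicate 1 had fragments in 20086 genes, the other fresh libraries in 15558 and 15991, and the vitrified–warmed libraries in 17563 to 17764. Markers of the blastocyst lineages were present: the summed level of 7 trophectoderm markers was 1655 to 1661 CPM in vitrified–warmed and 1425 to 1495 CPM in fresh blastocysts, that of 6 epiblast markers 670 to 696 and 655 to 685 CPM, and that of 5 primitive endoderm markers 295 to 328 and 233 to 239 CPM. Abundant genes carry these sums: Gata6 was higher (log2 fold change 0.51) while Sox17 was lower (-0.86), and Cdx2 was lower (-0.17) against the direction of the trophectoderm sum. The sums for other cells were 5.79 to 7.61 and 3.10 to 8.09 CPM for 8 cumulus and granulosa markers, 0.0889 to 0.217 and 0.797 to 1.71 CPM for 3 oviduct markers, and 13.8 to 18.6 and 3.34 to 4.69 CPM for 6 blood and immune markers. Hba-a1, Hbb-bs and Cd68 carry the blood and immune sum, while Ptprc, Lyz2 and Csf1r had at most 3 fragments in any library. Of 4 sperm markers, 3 had no fragment in any library, and the sum was 0.0933 to 0.178 CPM in vitrified–warmed and 0 in fresh blastocysts. What part these differences have in the values that follow was not tested, and in bulk samples fewer cells of a type and less RNA per cell cannot be told apart. CPM is the exon fragment count scaled to a common library size, as edgeR gives it after TMM, and log2 fold changes are vitrified–warmed over fresh.

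Transcripts of both polymerases of mitochondria were lower in vitrified–warmed blastocysts, Polg at 0.589-fold and Polrmt at 0.679-fold the level of fresh blastocysts, while Tfam was higher at 1.33-fold and Gabpb1 at 1.57-fold. The other 6 genes, Polg2, Ssbp1, Tfb1m, Tfb2m, Nrf1 and Gabpa, did not pass the test. Thus 2 of 10 genes were higher and 2 lower at an adjusted p under 0.05 in edgeR, where 31.6% of the 12774 genes tested were higher and 32.8% lower. All 10 had passed the filter on low counts. Their median log2 fold change was -0.0061, against -0.0011 over all genes tested. With at least a 1.5-fold change, a mean above 0.5 FPKM and an unadjusted p under 0.05, the thresholds of the study applied here to the edgeR fold and p, Gabpb1 was higher and Polg lower, and over all genes 9.17% were higher and 11.6% lower. On FPKM as deposited, the log2 ratio of the means was 0.47 for Gabpb1, which is under 1.5-fold. The ratio was -0.73 for Polrmt, -0.93 for Polg and -0.60 for Polg2, which are past it. The study calibrated its FPKM by 12 housekeeping genes. With counts scaled by those genes in edgeR, Gabpb1 (0.67) and Polg (-0.74) were past 1.5-fold. Polrmt (-0.53) and Polg2 (-0.39) were under it. The calls of Polg, Polrmt, Tfam and Gabpb1 held in each of 17 alternative settings. The number of lower genes depended on the scaling: with FPKM as deposited, which is not rescaled and shifts the median of all genes by -0.18, limma called 5 of the 10 lower (Polg, Polrmt, Polg2, Ssbp1 and Gabpa) and 2 higher. Of the 9728 genes in that fit, 48.6% were lower and 17.8% higher, so the count of the 10 lay close to the share over all genes.

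**Figure D1:**
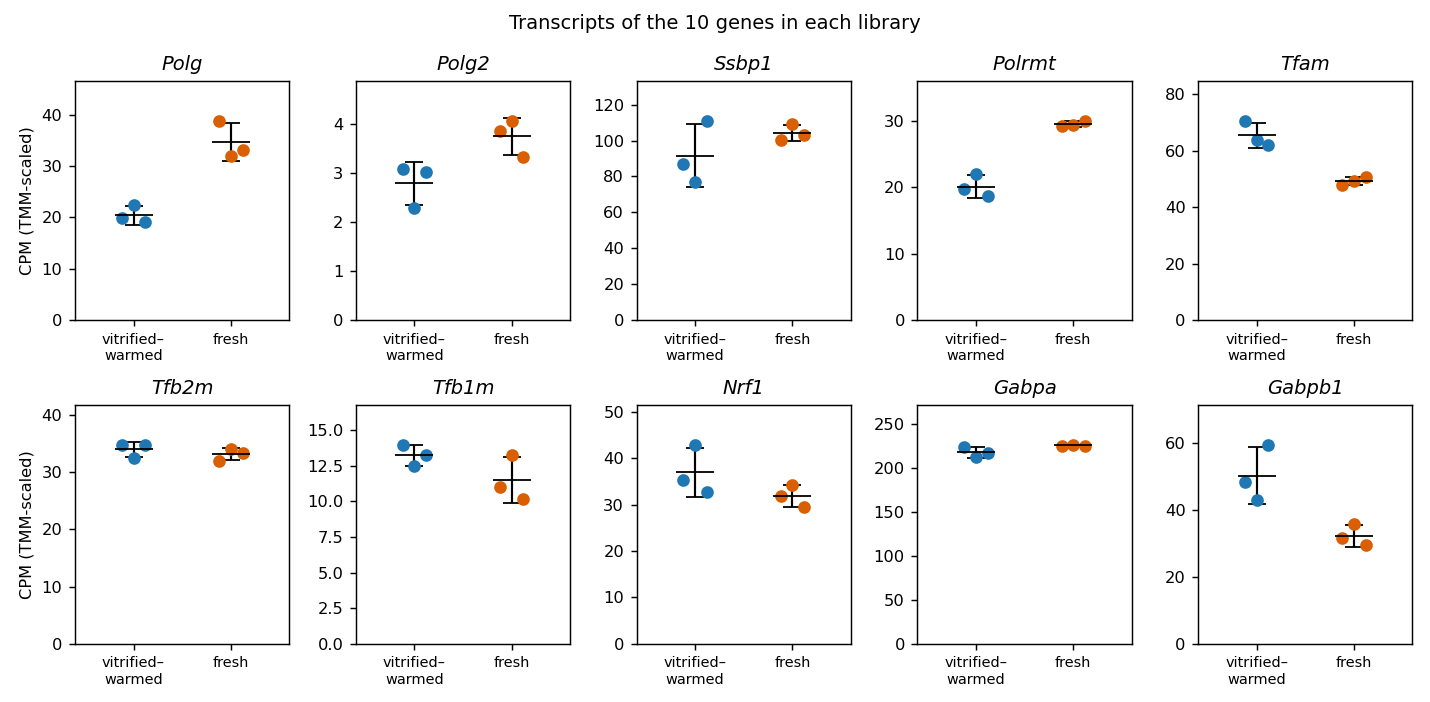
CPM after TMM scaling of each of the 10 genes in the 3 vitrified–warmed (blue) and 3 fresh (orange) libraries, each point a library, with the mean and SD of the group in black and every vertical axis starting at 0. The groups are apart for Polg, Polrmt, Polg2 and Gabpa, lower in vitrified–warmed blastocysts, and for Tfam and Gabpb1, higher there.

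Among the replication genes, Polg (chromosome 7, 79449382 to 79466305 of GRCm38, minus strand) had 19.8, 22.5 and 19.0 CPM in the vitrified–warmed libraries, against 38.8, 31.9 and 33.2 CPM in the fresh libraries. The highest vitrified–warmed library thus lay well below the lowest fresh one. Its mean was 20.4 ± 1.83 CPM and 34.6 ± 3.69 CPM (SD, n = 3 each). In edgeR the log2 fold change was -0.76 with a standard error of 0.10 (95% interval -0.97 to -0.55, adjusted p = 7.32e-06). The end of Polg overlaps the end of Fanci, a DNA crosslink repair gene on the other strand, by 921 exon bases in GENCODE M21. Fanci was higher in vitrified–warmed blastocysts (log2 fold change 0.45, adjusted p = 3.19e-04 from edgeR), the opposite direction to Polg. Whether the counting used strand is not given in the sources used here.

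Polg2 (chromosome 11, 106754821 to 106780010) was the least covered of the 10 genes, with 33, 21 and 34 exon fragments in the vitrified–warmed libraries and 42, 46 and 39 in the fresh libraries. Its CPM was also lower in each vitrified–warmed library (2.28 to 3.08) than in any fresh library (3.34 to 4.07). The log2 fold change of -0.42 had an adjusted p of 0.155 in edgeR and a 95% interval from -0.95 to 0.11, which holds both 0 and the value of Polg. Ssbp1 (chromosome 6, 40471415 to 40481825) had 87.2, 76.7 and 111 CPM in the vitrified–warmed libraries, against 100.1, 109 and 103 CPM in the fresh libraries. The vitrified–warmed libraries disagreed among themselves, with replicate 3 above every fresh library and the other two below. The log2 fold change was -0.18 (95% interval -0.48 to 0.12, adjusted p = 0.257 from edgeR), and without vitrified–warmed replicate 3 it was -0.33 (adjusted p = 5.16e-04), while without replicate 2 it was -0.07 (adjusted p = 0.577).

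In the transcription machinery, Polrmt (chromosome 10, 79736125 to 79746589) had 19.7, 22.0 and 18.7 CPM in the vitrified–warmed libraries, against 29.2, 29.4 and 30.0 CPM in the fresh libraries. The fresh libraries lay within 1 CPM of each other, and all vitrified–warmed libraries were below them. The means were 20.1 ± 1.68 and 29.5 ± 0.428 CPM (SD, n = 3 each). In edgeR the log2 fold change was -0.56 with a standard error of 0.09 (95% interval -0.75 to -0.37, adjusted p = 5.50e-05). Tfam (chromosome 10, 71225468 to 71238957), its partner at the promoters of mitochondrial DNA, went the other way. It had 70.6, 63.8 and 61.9 CPM in the vitrified–warmed libraries, against 47.9, 49.1 and 50.8 CPM in the fresh libraries, with no overlap. The means were 65.5 ± 4.58 and 49.3 ± 1.45 CPM (SD, n = 3 each). In edgeR the log2 fold change was 0.41 with a standard error of 0.07 (95% interval 0.27 to 0.55, adjusted p = 5.25e-05). With limma on log2(FPKM + 0.5) the difference of Tfam was 0.22 (adjusted p = 0.0125).

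The transcription factor B genes did not pass the test. Tfb2m (chromosome 1, 179528050 to 179546305), the initiation factor, had 32.5 to 34.8 CPM in vitrified–warmed and 31.9 to 34.0 CPM in fresh blastocysts. Its log2 fold change was 0.04 with a 95% interval of -0.12 to 0.20, narrow enough to leave out a change of the size of Tfam, and with limma on FPKM it was -0.12. Tfb1m (chromosome 17, 3519256 to 3557822), the ribosomal RNA methyltransferase, had 12.5 to 14.0 and 10.2 to 13.3 CPM, a log2 fold change of 0.21 (95% interval -0.07 to 0.48, adjusted p = 0.177 from edgeR). Its value was 0.32 without fresh replicate 2, 0.12 without fresh replicate 3 and 0.03 with limma on FPKM. Tiam2 and Cldn20 overlap its span on the other strand.

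Among the nuclear regulators, Gabpb1 (chromosome 2, 126628907 to 126676677) showed the largest rise of the 10 genes in edgeR, with 48.2, 42.8 and 59.5 CPM in the vitrified–warmed libraries, against 31.5, 35.6 and 29.4 CPM in the fresh libraries. Vitrified–warmed replicate 3 was the highest, and the lowest vitrified–warmed library was still above all fresh libraries. The means were 50.1 ± 8.49 and 32.2 ± 3.16 CPM (SD, n = 3 each). In edgeR the log2 fold change was 0.65 with a standard error of 0.12 (95% interval 0.39 to 0.90, adjusted p = 4.26e-04), and with limma on FPKM the difference was 0.40 (adjusted p = 0.0175). Its DNA-binding partner Gabpa (chromosome 16, 84834925 to 84863783) had 224, 212 and 217 CPM in the vitrified–warmed libraries, against 226, 227 and 226 CPM in the fresh libraries. The groups were apart by less than 2 CPM, and the log2 fold change was -0.05 (95% interval -0.13 to 0.03, adjusted p = 0.247 from edgeR). With limma on FPKM, where the median of all genes shifts by -0.18, Gabpa was called lower (-0.22, adjusted p = 0.00189). Gabpa shares 397 exon bases with Atp5j on the other strand, which was higher in vitrified–warmed blastocysts (log2 fold change 0.24, adjusted p = 2.28e-04 from edgeR). On the other strand, LOC105244282 overlaps the span of Gabpb1 by 950 bases. That gene had 8.12 to 10.7 CPM in vitrified–warmed and 6.29 to 9.17 CPM in fresh blastocysts (log2 fold change 0.34, adjusted p = 0.103 from edgeR). Gabpb2, the alternative beta subunit, had a log2 fold change of -0.08 (adjusted p = 0.226).

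Nrf1 (chromosome 6, 30047988 to 30153458), which binds as a dimer to GC-rich sites in promoters, had 35.3, 42.9 and 32.8 CPM in the vitrified–warmed libraries, against 31.8, 34.3 and 29.4 CPM in the fresh libraries. The groups overlapped, with vitrified–warmed replicate 2 the highest. The log2 fold change was 0.21 (95% interval 0.00096 to 0.42, adjusted p = 0.0729 from edgeR). It passed the test in 5 of 17 alternative settings, among them the fit with the replicate number as a block (0.21, adjusted p = 0.0327) and the fit without vitrified–warmed replicate 3 (0.31, adjusted p = 0.0190). Without vitrified–warmed replicate 2 it was 0.10 (adjusted p = 0.309 from edgeR), and with limma on FPKM 0.03 (adjusted p = 0.770). Over all 10 genes, the CPM of the groups did not overlap for 2 that were higher and 4 that were lower. The same held for 33.5% and 35.1% of all genes tested. In an exact permutation test, two-sided, these 6 genes had p = 0.1, the smallest that 3 against 3 libraries allow.

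**Figure D2:**
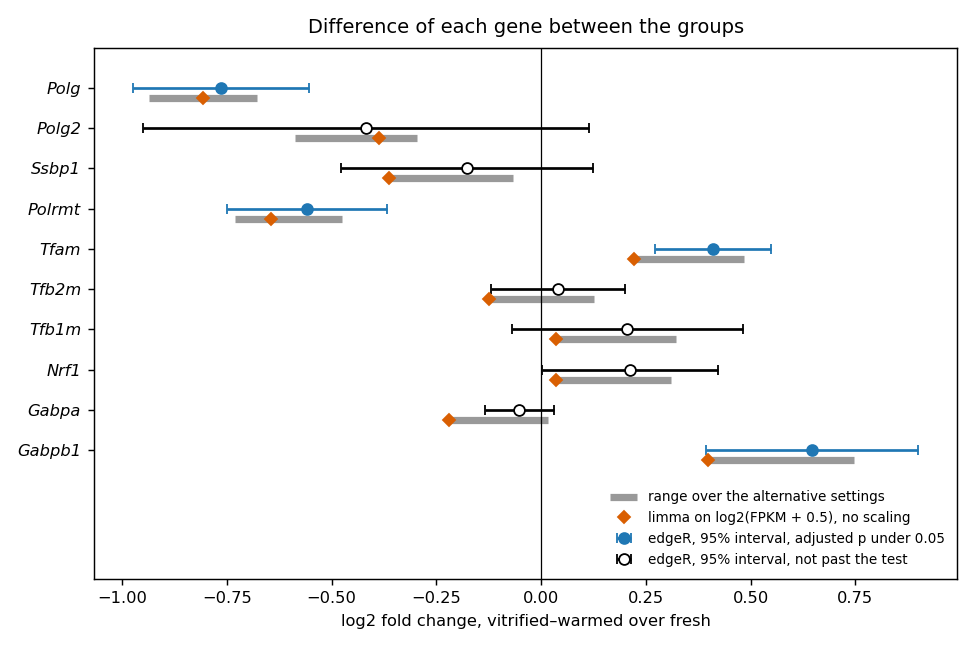
Log2 fold change of each gene, vitrified–warmed over fresh, with the 95% interval from edgeR (filled, adjusted p under 0.05; open, not past the test). Grey bars span the alternative settings and orange diamonds mark limma on log2(FPKM + 0.5). Polg and Polrmt stay below 0 and Tfam and Gabpb1 above 0 throughout, while the range of Tfb2m (-0.13 to 0.13) and of Gabpa (-0.22 to 0.02) crosses 0.

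The promoters of the 4 called genes are shown because 3 of them hold the core that GABP binds, CCGGAAG, in genes that went in both directions. Each line gives 150 bases before the RefSeq start in GRCm38.p6, 5′ to 3′ on the gene's strand. For Tfam and Gabpb1 the deposited spans reach further, to 71238957 and 126676677, so both stretches lie inside those spans. The spans of Polg and Polrmt end within their stretches, at 79466305 and 79746589. Counts were made over exons, and which of these bases were counted is not given in the sources used here. Capitals mark CCGGAAG or its reverse complement CTTCCGG, and in Polrmt also the NRF1 core GCGCATGC. The lower genes come first.
Polg, chr7:79466274-79466423, minus strand: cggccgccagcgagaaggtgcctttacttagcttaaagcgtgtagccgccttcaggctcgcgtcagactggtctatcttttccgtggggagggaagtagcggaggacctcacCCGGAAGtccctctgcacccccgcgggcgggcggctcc
Polrmt, chr10:79746582-79746731, minus strand: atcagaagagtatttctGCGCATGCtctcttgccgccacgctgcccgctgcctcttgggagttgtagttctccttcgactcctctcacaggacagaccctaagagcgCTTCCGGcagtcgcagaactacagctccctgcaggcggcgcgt
Tfam, chr10:71238045-71238194, minus strand: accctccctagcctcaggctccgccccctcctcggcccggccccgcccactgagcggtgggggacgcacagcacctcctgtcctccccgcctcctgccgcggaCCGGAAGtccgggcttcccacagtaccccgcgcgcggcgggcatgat
Gabpb1, chr2:126675593-126675742, minus strand, the outer of 2 starts: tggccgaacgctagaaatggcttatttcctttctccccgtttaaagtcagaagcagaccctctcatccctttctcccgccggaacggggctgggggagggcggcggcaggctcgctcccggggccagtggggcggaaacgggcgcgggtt

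The GABP core begins at position -38 from the start in Polg, -43 in Polrmt and -47 in Tfam. It was also found at -29 in Polg2, -47 in Ssbp1 and -93 in Gabpa, so in 6 of the 10 genes. Windows from 250 bases before to 50 bases after a start hold this core on either strand in 8.86% of the 32851 RefSeq promoters. The NRF1 core GCGCATGC (reverse complement GCATGCGC) was found at -133 in Polrmt and at position 14 in Tfb2m, and in 2.71% of all windows. The motifs do not overlap each other in these windows. Of the 6 genes with the GABP core, 1 was higher, 2 were lower and 3 did not pass the test. These letters were chosen as textbook cores after the promoters had been read, and a match is not a measured binding site.

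Ratios of a pair of genes within a library do not depend on how libraries are scaled to each other. The Polrmt to Tfam ratio of FPKM was 0.309, 0.382 and 0.334 in the vitrified–warmed libraries, against 0.675, 0.663 and 0.654 in the fresh libraries. The polymerase was thus lower relative to its partner in all 3 vitrified–warmed libraries, by a log2 difference of -0.96. The Gabpa to Gabpb1 ratio was 6.63, 7.07 and 5.20 in the vitrified–warmed libraries, against 10.2, 9.08 and 10.9 in the fresh libraries, a log2 difference of -0.68 without overlap. The Polg to Polrmt ratio was 0.797, 0.813 and 0.809, against 0.860 to 1.06 in fresh libraries (log2 difference -0.20, or -0.11 without fresh replicate 1). The ratios of Polg to Polg2, Tfb2m to Tfb1m and Nrf1 to Gabpa overlapped between the groups, with log2 differences of -0.32, -0.17 and 0.26. Single libraries moved these, to -0.53 for Polg to Polg2 without vitrified–warmed replicate 2 and -0.21 without replicate 3, to -0.26 and -0.08 for Tfb2m to Tfb1m without fresh replicates 2 and 3, and to 0.13 for Nrf1 to Gabpa without vitrified–warmed replicate 2. In an exact permutation test, two-sided, the 3 ratios without overlap had p = 0.1, the smallest the design allows, and 0.2 after adjustment over the 6 ratios, so none passed a threshold of 0.05.

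**Figure D3:**
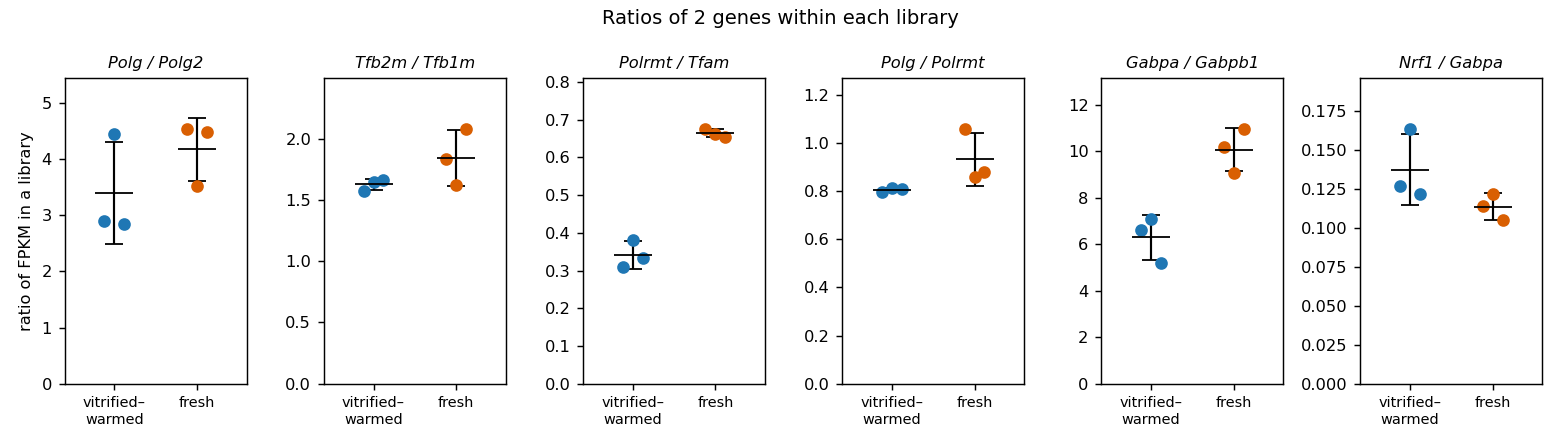
Ratio of the FPKM of 2 genes within each library, for 6 pairs, with vitrified–warmed libraries in blue and fresh libraries in orange, the mean and SD of each group in black, and axes starting at 0. The Polrmt to Tfam ratio lies at 0.309 to 0.382 in vitrified–warmed and at 0.654 to 0.675 in fresh libraries.

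Per length of transcript, in FPKM, Gabpa and Ssbp1 were the most abundant of the 10 genes in both groups. In vitrified–warmed blastocysts Gabpa had 23.9 ± 0.864 and Ssbp1 19.4 ± 3.93 FPKM (SD, n = 3 each), and their libraries overlapped. In fresh blastocysts they had 27.9 ± 0.238 and 24.7 ± 0.843 FPKM (SD, n = 3 each), without overlap. Tfam and Tfb2m followed, with Tfam above Tfb2m in vitrified–warmed blastocysts (8.77 ± 0.630 and 7.20 ± 0.364 FPKM) and below it in fresh ones (7.43 ± 0.177 and 7.89 ± 0.174 FPKM), each pair of ranges apart. In vitrified–warmed blastocysts Tfb1m, Gabpb1, Nrf1 and Polrmt came next at 4.42, 3.86, 3.27 and 2.98 FPKM, neighbours overlapping, then Polg at 2.41 FPKM. In fresh blastocysts the order was Polrmt, Polg and Tfb1m at 4.94, 4.60 and 4.32 FPKM, neighbours overlapping, then Nrf1 and Gabpb1 at 3.17 and 2.79 FPKM. Polg2 was last in both groups, at 0.731 ± 0.124 and 1.11 ± 0.111 FPKM (SD, n = 3 each). In both groups the catalytic subunit was thus above the accessory subunit in FPKM.

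Other nuclear genes that act on mitochondrial DNA and its RNA went both ways. Of 64 genes tested in 6 lists, 16 were higher and 23 lower in edgeR, with a median log2 fold change of -0.07. Over all genes tested in edgeR 31.6% were higher and 32.8% lower, and the counts of single lists below stand against the same shares. With limma on FPKM 5 were higher and 34 lower of 62 tested, where 17.8% and 48.6% of all genes were. In the replication and nuclease list, 1 of 14 genes was higher and 5 lower (median -0.07). Twnk, listed as Peo1, the helicase that unwinds ahead of POLG, rose to 18.7 ± 1.29 CPM in vitrified–warmed blastocysts, against 13.1 ± 0.116 CPM in fresh ones (SD, n = 3 each, log2 fold change 0.50, adjusted p = 6.51e-04 from edgeR). Top1mt, the mitochondrial topoisomerase, fell to 2.71 ± 0.840 CPM, against 7.82 ± 0.506 CPM in fresh ones (SD, n = 3 each, log2 fold change -1.51, adjusted p = 2.14e-05 from edgeR). It had only 16 to 98 fragments per library. The nuclease genes Endog and Mgme1 had log2 fold changes of -0.95 and -0.88, and Primpol and Ung were also lower. Endog had only 25 to 78 fragments per library.

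Of 6 elongation and termination genes, 2 were higher and 2 lower. Mterf2, of the mitochondrial termination factor family, had 7.37, 8.15 and 6.40 CPM in vitrified–warmed libraries, against 1.75, 0.708 and 1.37 CPM in fresh libraries (log2 fold change 2.51, adjusted p = 1.49e-06 from edgeR). Its fresh level was low, with as few as 8 fragments in a library, so the size of this rise is uncertain. Mterf3 and Mterf4 had log2 fold changes of 0.24 and -0.49. The call of Mterf3 was lost with DESeq2, with the replicate block (adjusted p = 0.0540), without the filter on low counts, with limma on FPKM (0.06, adjusted p = 0.491) and without any of vitrified–warmed replicates 1 and 3 and fresh replicates 2 and 3 (0.21 to 0.25), and that of Mterf4 without fresh replicate 2 (-0.38). Mterf1b, lower here, is a near copy of Mterf1a, so its reads may be split between them. Tefm, the elongation factor of POLRMT, had -0.17 (adjusted p = 0.297 from edgeR).

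Of 16 RNA processing and turnover genes, 4 were higher and 8 lower (median -0.17). Grsf1 and Rexo2, for an RNA granule protein and an RNA exonuclease, had log2 fold changes of 0.35 and 0.44, and Fastkd1 had 0.33, a call lost with limma on FPKM (0.14, adjusted p = 0.124). Hsd17b10, a subunit of mitochondrial RNase P, Fastkd2 and Supv3l1, the helicase of the RNA degradosome, had -0.74, -0.67 and -0.55. Lrpprc, which stabilizes mitochondrial messenger RNA, was lower by less, at -0.27.

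Of 13 tested genes of deoxynucleotide supply, 3 were higher and 6 lower (median -0.12). Samhd1, which breaks down deoxynucleotides, fell to 6.06 ± 0.482 CPM in vitrified–warmed blastocysts, against 21.1 ± 0.984 CPM in fresh ones (SD, n = 3 each, log2 fold change -1.80, adjusted p = 1.50e-08 from edgeR). Dguok and Tk2, the mitochondrial deoxynucleoside kinases, had log2 fold changes of -1.18 and -0.85. These rest on only 21 to 82 and 24 to 58 fragments per library. The ribonucleotide reductase genes Rrm1, Rrm2 and Rrm2b had 0.21, 0.11 and 0.45, calls that were lost with limma on FPKM, where Rrm2 had -0.07, and were also lost for Rrm2b without vitrified–warmed replicate 3, fresh replicate 2 or fresh replicate 3 (0.36 to 0.41) and for Rrm2 without fresh replicate 3 (0.10).

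Among 12 genes listed as co-regulators and partners of NRF1 and GABP, 5 were higher and 2 lower (median 0.08). Esrra, a nuclear receptor that works with PGC-1 proteins, had a log2 fold change of -1.65 and Pprc1, a PGC-1 related coactivator, -0.16. The value of Esrra rests on 17 to 88 fragments per library. Myc, Keap1 and Creb1 had 0.50, 0.48 and 0.39 (the calls of Myc and Creb1 were lost with limma on FPKM, and that of Myc without vitrified–warmed replicate 1, at 0.44). Keap1 and the factor it restrains, Nfe2l2, also called NRF2, belong to the antioxidant response and are distinct from GABP. Nfe2l2 had 0.31 (adjusted p = 2.84e-04 from edgeR), and both count among the 5 higher genes of this list. Ppargc1b rose by 0.33, and Ppargc1a, at 0.993 CPM in vitrified–warmed and 0.957 CPM in fresh blastocysts, was near the limit of detection. Of 3 protease genes, Clpp had 0.26 (lost with limma on FPKM), and Lonp1, which degrades TFAM, had -0.02 (adjusted p = 0.761 from edgeR).

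**Figure D4:**
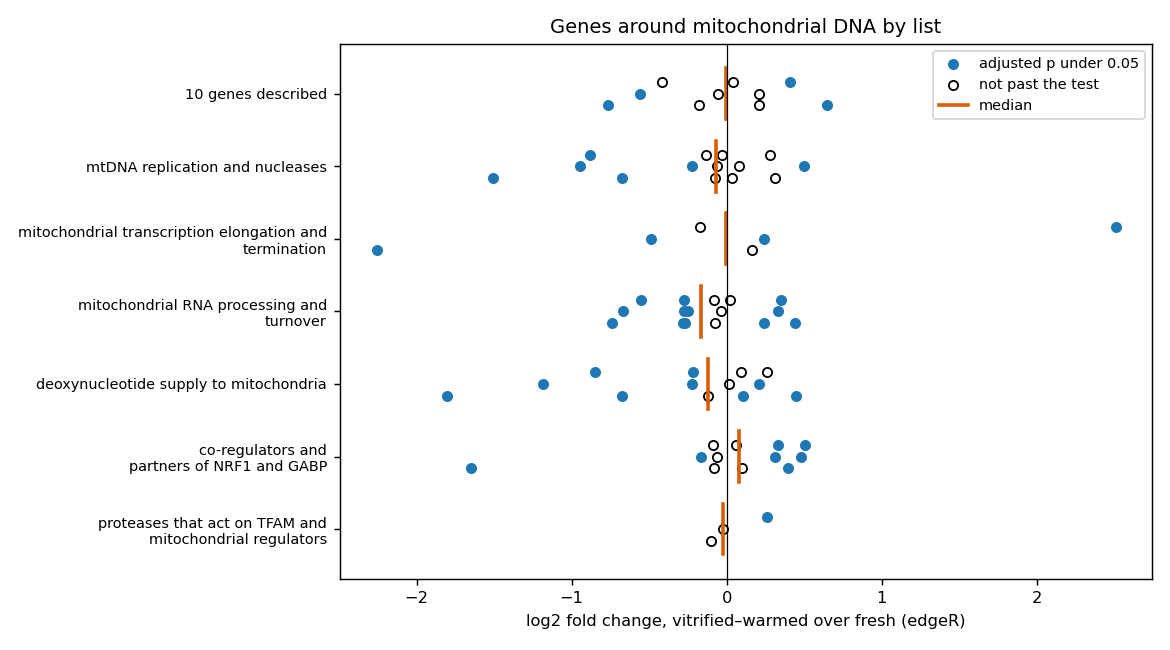
Log2 fold change, vitrified–warmed over fresh, of the 10 genes and of the genes tested in 6 lists around mitochondrial DNA, each point a gene (filled, adjusted p under 0.05 in edgeR), with the median of each list in orange. Medians lie between -0.17 and 0.08. Single genes reach -2.26 (Mterf1b, on 1 to 23 fragments per library) and 2.51 (Mterf2, on 8 to 79).

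Transcripts made from mitochondrial DNA took a larger share of exon fragments in vitrified–warmed blastocysts, at 10.8% to 11.3% for the 13 protein-coding genes, against 9.46% to 9.65% in fresh blastocysts. The 2 ribosomal RNA genes took 11.1% to 11.8% and 10.6% to 10.7%. Exon fragments were a smaller part of the totals used for FPKM in vitrified–warmed libraries (54.4% to 56.6%, against 63.2% to 63.6% in fresh libraries). The larger shares therefore hold for exon fragments and not for those totals. On those totals the shares of the protein-coding genes overlapped between the groups. The ribosomal RNA genes took a smaller share of them in each vitrified–warmed library than in any fresh library. In edgeR 9 of the 13 protein-coding genes were higher and 0 lower, where 31.6% and 32.8% of all genes tested were. The split of the 13 depended on the setting. It was 5 higher and 3 lower in limma on FPKM, and 6 higher and 5 lower after a correction for exon length. Nd2, for a subunit of complex I, had 18870, 17904 and 18885 CPM in the vitrified–warmed libraries, against 12238, 12686 and 12763 CPM in the fresh libraries. The groups were far apart (log2 fold change 0.56, adjusted p = 1.84e-09 from edgeR). Atp8 had 0.39, which became -0.14 after that correction. Atp6 had the highest log2 fold change, 1.12, on 190, 130 and 167 fragments in the vitrified–warmed libraries and 72, 83 and 88 in the fresh libraries. Atp8, which is 204 bases long to the 681 of Atp6 and shares 43 bases with it, held 44453 to 50214 and 38289 to 41559 fragments. How fragments were assigned between these genes is not given in the sources used here, so the values of both are uncertain. Nd6, the gene on the opposite strand of the circle from the other protein-coding genes, had -0.07 (adjusted p = 0.127 from edgeR). Its share of the fragments of the 13 genes was 0.270% to 0.277% in vitrified–warmed and 0.329% to 0.335% in fresh libraries, without overlap.

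The ribosomal RNA genes lie next to each other after the start of transcription, yet differed. In edgeR Rnr1, the small subunit RNA that TFB1M methylates, was at 0.36 on the log2 scale (adjusted p = 2.02e-06), and Rnr2, the large subunit RNA, had -0.0027 (adjusted p = 0.932). The Rnr2 to Rnr1 ratio of fragments within a library was 3.03, 2.80 and 3.05 in the vitrified–warmed libraries, against 3.79, 3.79 and 3.80 in the fresh libraries. The groups did not overlap, and this ratio was chosen after the values were seen.

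**Figure D5:**
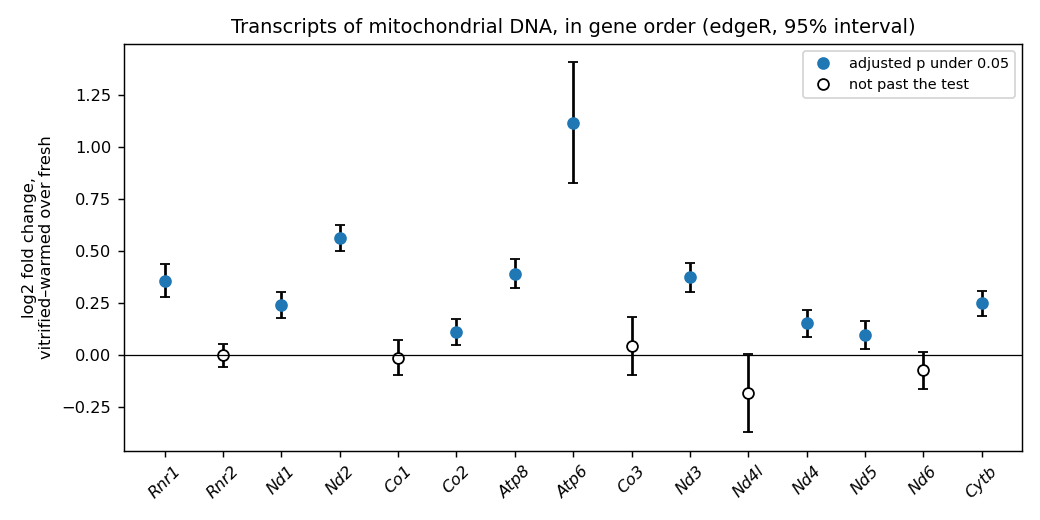
Log2 fold change, vitrified–warmed over fresh, with the 95% interval from edgeR, of the 2 ribosomal RNA and 13 protein-coding genes of mitochondrial DNA in gene order. Atp6 stands highest at 1.12 on few fragments, Nd2 is at 0.56, and Rnr1 (0.36) is apart from its neighbour Rnr2.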

How the data were processed

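Reads were trimmed, mapped to GRCm38 and counted per gene over exons by the authors in CLC Genomics Workbench. The deposited counts are whole numbers without normalization, and the deposited FPKM values use the exon length and a library total larger than the sum of exon fragments. The annotation release is not given in the sources used here. Columns with the authors' fold changes, p-values and means were not used. Of 28887 entries, 8 name no gene.

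After filterByExpr, counts were tested in edgeR 4.0.16 (TMM scaling, robust quasi-likelihood test, Benjamini–Hochberg adjustment over 12774 genes) in R 4.3.3. Ratios were compared with an exact permutation test (scipy 1.17.1). In simulated libraries, 49 or 50 genes were changed at each fold size. Of these, 49.0% at 1.25-fold, 76% at 1.5-fold and 86% at 2-fold were recovered. Among 12198 genes tested 19 unchanged genes were called, which is many beside the 49 or 50 changed at each size. The simulation changed a far smaller share of genes than the 31.6% and 32.8% called here, so it gives no rate of false calls for these data.

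All 10 members are named, and from each of 8 pathway lists up to 3 higher and 3 lower genes past the test by size of change, where the groups did not overlap and FPKM averaged above 0.5. Primpol, Ung, Mterf1b, Tefm, Lrpprc, Gabpb2, Nfe2l2, Ppargc1a, Ppargc1b, Lonp1, Nd6 and Rnr2 were added for context after their values were seen. The members and lists were chosen with earlier results of these data known. Of 66 listed nuclear genes, 65 were found by name. All 10 members matched RefSeq promoters (GRCm38.p6). Alternatives were DESeq2 1.42.0, other scalings and filters, limma 3.58.1 on log2(FPKM + 0.5 or 0.1) for genes above 0.5 FPKM, an exon length offset, a replicate block and each library left out.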

Additional observations from a re-analysis of the deposited data

How the results depend on the processing

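The calls of Polg, Polrmt, Tfam and Gabpb1 kept their direction and stayed past the test in all 17 alternatives. The number of the 10 genes called lower was 5 with limma on log2(FPKM + 0.5), with limma on log2(FPKM + 0.1) and with library sizes set to the totals behind FPKM, a setting added after the data were seen. Over all genes, limma called 1730 and 1716 higher at these pseudocounts, and with only genes above 1 FPKM, where fewer genes were tested, 2790 were lower. Tfb2m turned to -0.12, -0.13 and -0.13 in the 3 settings on the FPKM scale, and Rrm2 to -0.066, -0.067 and -0.066. With the exon length offset Gabpa had 0.016 and Atp8 -0.14. Leaving out each library in turn gave 2 to 3 of the 10 genes higher and 2 to 3 lower, the third of each being Nrf1 and Ssbp1 without vitrified–warmed replicate 3. Without fresh replicate 1 there were 2 and 2. With the replicate block, 3 were higher (Nrf1 added) and 2 lower, and over all genes 3890 and 4073. Same-numbered libraries had correlations of -0.01, -0.03 and 0.03 in their deviations, so they share only a number. Of 29 other genes named by rule, 19 kept sign and call in every setting. Polg2, with 21 to 46 fragments per library, limits what can be said of it.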
